A study of Mus musculus with 6 samples.

Results

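The 38 Hox genes measured here are the members of the 4 Hox clusters: 10 Hoxa, 10 Hoxb, 9 Hoxc and 9 Hoxd genes. They were taken by symbol alone from 23185 named genes on each array. This rule used no expression value, but the gene family was chosen with earlier results of these data known. The arrays compared hematopoietic stem cells (HSCs) of young wild-type (WT) mice with those of Merit40-/- mice, 3 Affymetrix Mouse Gene 2.0 ST arrays per genotype. The cells came straight from adult bone marrow without culture and were sorted, with a repeated sort, as CD150+CD48-LSK, where LSK stands for lineage-negative, Sca-1+ and c-Kit+. Merit40, the product of Babam1, belongs to the deubiquitinase complexes BRISC and BRCA1-A. The labels do not give the number of mice behind an array, the strain or the design of the Merit40 allele. The arrays are labelled as biological replicates, and all p-values measure the spread between these arrays.

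Hox genes encode homeodomain transcription factors and lie side by side in 4 clusters that arose by duplication. Genes with the same paralogue number occupy the same place in different clusters. In the embryo they are switched on in the order of their place in the cluster and set position along the body axis. In blood, HSCs and early progenitors are known for expression of Hoxa and Hoxb genes that declines as the cells mature. The products bind DNA together with Pbx and Meis proteins of the TALE class, while MLL complexes maintain and Polycomb complexes repress the clusters.

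The arrays carried the expression of HSCs. All 6 measured HSC markers (Slamf1, Kit, Procr, Mecom, Hlf and Fgd5) lay above the mark of low signal defined below on every array. Babam1 itself fell by 3.94 on the log2 scale (SE 0.14, adjusted p = 5.04e-05 in limma), from 8.0 ± 0.08 in WT to 4.06 ± 0.21 in Merit40-/- (SD, n = 3). Cd48, whose protein the sort excluded, read 5.03 to 5.64 in WT and 4.99 to 5.88 in Merit40-/-, above that mark. Of 3 measured lineage markers 2, Ly6g and Itgam, also lay above it on every array. The granulocyte gene Ly6g read 5.88 to 6.42 in WT and 6.35 to 7.66 in Merit40-/-, and Itgam 6.03 to 6.88 and 6.59 to 6.83. Cd3e lay below the mark on every array, at 2.96 to 3.40 in WT and 3.06 to 3.22 in Merit40-/-. Single arrays stood apart in markers of other cell types. Of 7 skeletal muscle markers 3 lay above the mark on every WT array and 4 on every Merit40-/- array, and the list averaged 9.20 in Merit40-/- replicate 1 against 4.55 to 5.02 on the other arrays. Of 4 osteoclast markers 2 lay above it in each genotype, and the list averaged 6.65 in Merit40-/- replicate 3 against 4.13 to 4.43. Marrow stroma can express Hox genes as well. Of the 9 stromal markers 3 lay above the mark on every WT array. The stromal list averaged 4.23 to 4.49 in WT and 4.29 to 4.40 in Merit40-/-. Of 4 endothelial markers 2, Pecam1 and Emcn, lay above the mark on every array. Cdh5 lay below it on every array, and Kdr passed it on 1 WT array only. The endothelial list averaged 5.92 to 6.08 in WT and 6.10 to 6.24 in Merit40-/-. No gene of these lists passed the adjusted threshold in limma. Of the stromal markers 5 were higher and 4 lower in Merit40-/-, with a median difference of 0.02 and Cxcl12 the lowest at -0.59. Of the endothelial markers 3 were higher and 1 lower, with a median of 0.12 and Emcn the highest at 0.45. Whether these readings came from other cells, and what part such cells had in the Hox values, was not tested.

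In WT HSCs the signal of the Hox genes was concentrated in 2 runs of neighbours, Hoxa2 to Hoxa10 and Hoxb2 to Hoxb6. The deposited values carry no detection call. A gene was therefore counted as above low signal when each WT array read higher than the 95th percentile, on the same array, of 1368 odorant, vomeronasal and trace amine receptor genes, which serve sensory neurons. This mark lay at 4.58 to 4.66 on the WT arrays. It was passed by 15 of 38 Hox genes (39.5%), compared with 51.0% of all named genes. They were 8 of 10 Hoxa genes, 5 of 10 Hoxb genes, 1 of 9 Hoxc genes and 1 of 9 Hoxd genes. All values are log2 expression values. Probe sets differ in affinity, so values of different genes do not rank their transcripts, and a value below the mark means only that the gene was not distinguishable from low signal here. In sorted bulk RNA, fewer cells with a transcript and less of it per cell cannot be told apart.

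**Figure D1:**
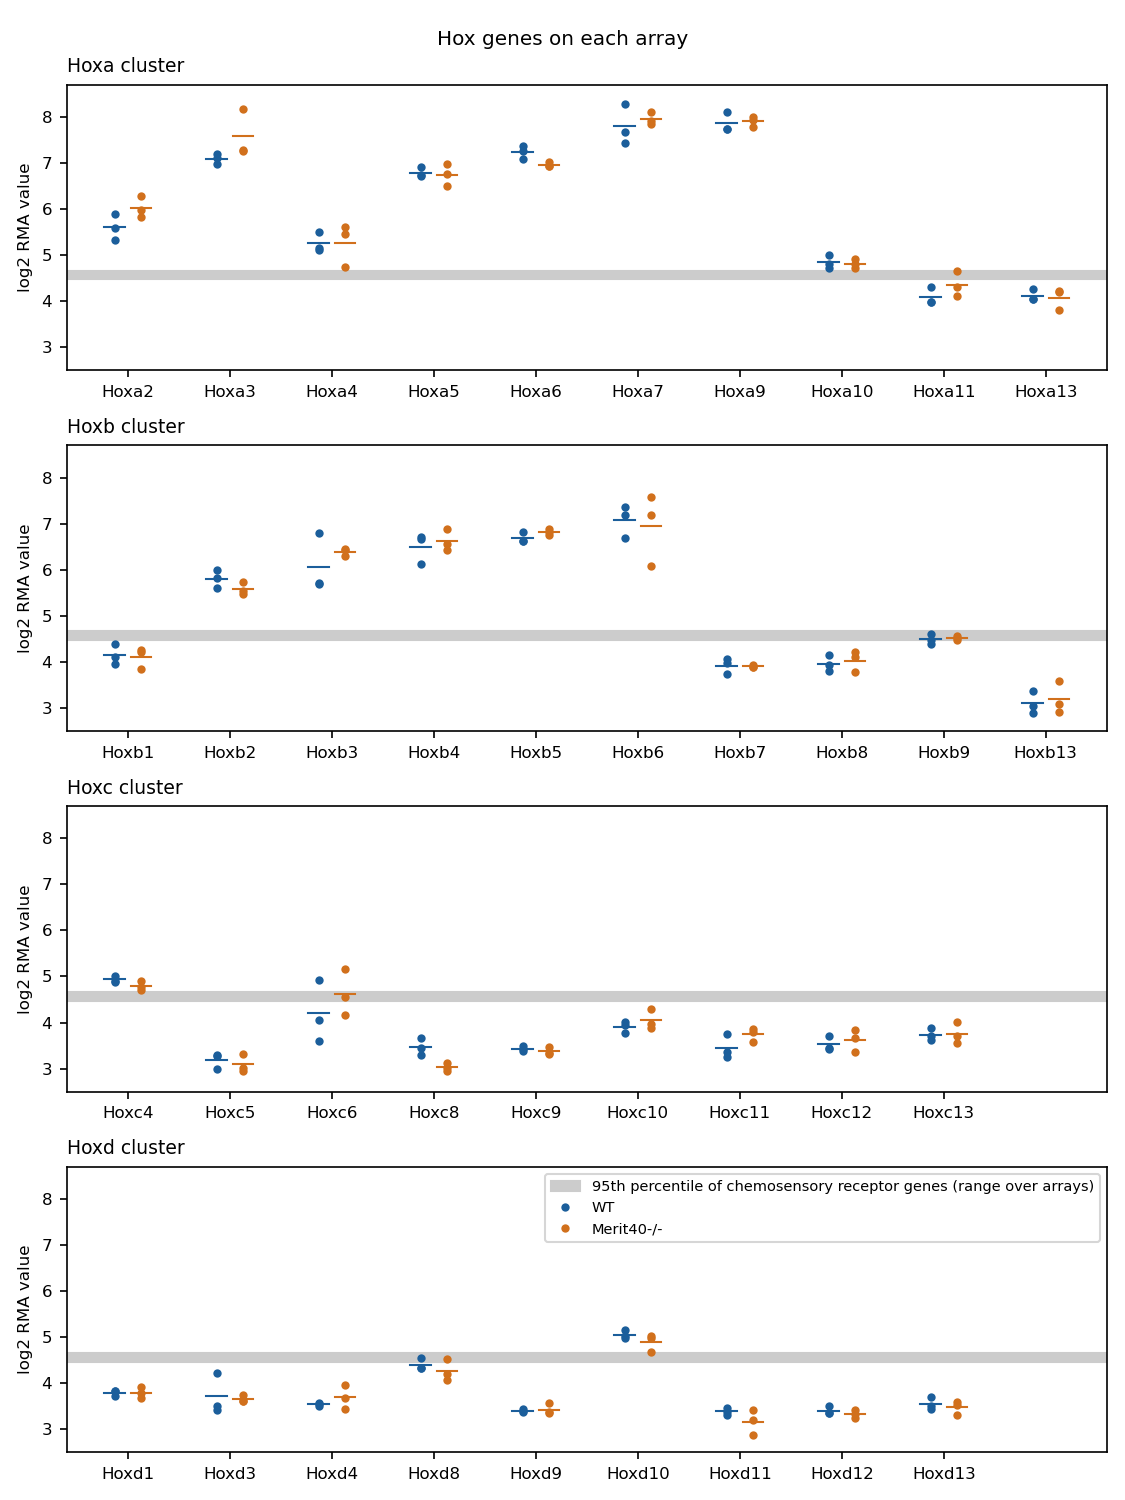
Log2 RMA value of each Hox gene (y axis) on each array, by cluster and in the order of paralogue number (x axis). Points are arrays (blue WT, orange Merit40-/-, 3 each), short lines are group means, and the grey band spans the mark of low signal over the 6 arrays, 4.47 to 4.66. Hoxa2 to Hoxa10 and Hoxb2 to Hoxb6 lie above the band in both genotypes.

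The mark mattered at its edges. With the 90th percentile of the receptor genes 18 Hox genes passed, with Hoxa13, Hoxb9 and Hoxd8 added. With the 99th percentile 7 passed, namely Hoxa3, Hoxa5, Hoxa6, Hoxa7, Hoxa9, Hoxb5 and Hoxb6. With the median of all genes as the mark 13 passed, without Hoxa10 and Hoxc4. In the RefSeq gene order (GRCm38.p6), the 8 Hoxa genes above the mark followed each other on chromosome 6 without a gap among the measured Hox genes, as did the 5 Hoxb genes on chromosome 11. Hoxc4 on chromosome 15 and Hoxd10 on chromosome 2 stood alone, each with neighbours below the mark on both sides or at the end of its cluster.

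The Merit40-/- arrays, which did not enter the count, gave the same list. There, too, 15 Hox genes lay above the mark on each of 3 arrays (51.7% of all named genes did), and all 15 were those of WT.

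In the Hoxa cluster the signal began with Hoxa2 and ended with Hoxa10. Hoxa9, which is needed for normal HSC function and is overexpressed in many acute myeloid leukaemias, read 7.73, 7.74 and 8.10 in WT. Hoxa7, which shares much of the leukaemic expression of Hoxa9, read 7.43, 7.66 and 8.28. Hoxa10, a further leukaemia-associated member, read 4.81, 4.72 and 5.0, just above the mark. Beyond it, Hoxa11 and Hoxa13, genes of the limb and urogenital tract, read 3.99 to 4.31 and 4.05 to 4.26, below the mark on all 3 WT arrays. The boundary thus fell between Hoxa10 and Hoxa11.

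Towards the other end of the cluster, Hoxa6 read 7.09, 7.25 and 7.36 in WT. Hoxa5, a regulator of lung development with a role in blood lineage choice, read 6.72, 6.73 and 6.91. Hoxa4 read 5.11, 5.16 and 5.49. The WT SD (n = 3) was 0.14 for Hoxa6, 0.10 for Hoxa5 and 0.21 for Hoxa4, against a median of 0.16 over all genes. Hoxa3, known for its role in thymus and parathyroid formation, read 6.97, 7.10 and 7.19. Hoxa2, which patterns the branchial arches, read 5.59, 5.89 and 5.34. The annotated span of Hoxa3 in RefSeq covers Hoxa4, Hoxa5 and Hoxa6, that of Hoxb3 covers Hoxb4, that of Hoxd3 overlaps Hoxd4 and that of Hoxd11 overlaps Hoxd10. Which probes these genes share depends on the chip definition, which is not given in the sources used here.

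In the Hoxb cluster the signal covered paralogues 2 to 6. Hoxb4, whose overexpression expands HSCs in culture, read 6.13, 6.70 and 6.65 in WT. Hoxb5, whose expression marks long-term HSCs in the mouse, read 6.62, 6.63 and 6.82. Hoxb6 read 7.18, 7.35 and 6.69. Of these, Hoxb5 had the smallest spread in WT, with an SD of 0.11 (n = 3). Hoxb3, which acts with Hoxb4 in HSC proliferation, read 5.68, 5.71 and 6.80, so WT replicate 3 stood apart by more than 1 log2 unit. Hoxb2 read 5.99, 5.81 and 5.61. Outside this stretch all genes lay below the mark: Hoxb1, a hindbrain gene, read 3.95 to 4.40, Hoxb7 3.74 to 4.05, and Hoxb8, used to immortalise myeloid progenitors, 3.80 to 4.15. Hoxb9 read 4.39 to 4.61, close below the mark, and Hoxb13, a gene of the prostate and tail, 2.88 to 3.37.

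The Hoxc and Hoxd clusters stayed at low signal apart from Hoxc4, Hoxd10 and single readings of Hoxc6. Hoxc4 read 4.89, 5.01 and 4.91 in WT, and Hoxd10, a gene of limb and lumbar motor neurons, 5.03, 4.97 and 5.16. Hoxc6 was scattered, at 3.61, 4.92 and 4.06, and passed the mark on 1 of 3 WT arrays. The other 7 Hoxc genes had WT means of 3.19 (Hoxc5) to 3.91 (Hoxc10). Among the other Hoxd genes the WT means ran from 3.39 (Hoxd11) to 4.40 (Hoxd8). None of these 15 genes passed the mark on any WT array.

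By paralogue number, groups 2 to 6 had a Hoxa and a Hoxb member above the mark. Group 4 was the only one with 3 members above it (Hoxa4, Hoxb4 and Hoxc4), while Hoxd4 read 3.51 to 3.56. In groups 7 and 9 only the Hoxa gene passed. Group 10 held Hoxa10 and Hoxd10, both close above the mark. In groups 1, 8, 11, 12 and 13 no measured member passed.

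**Figure D2:**
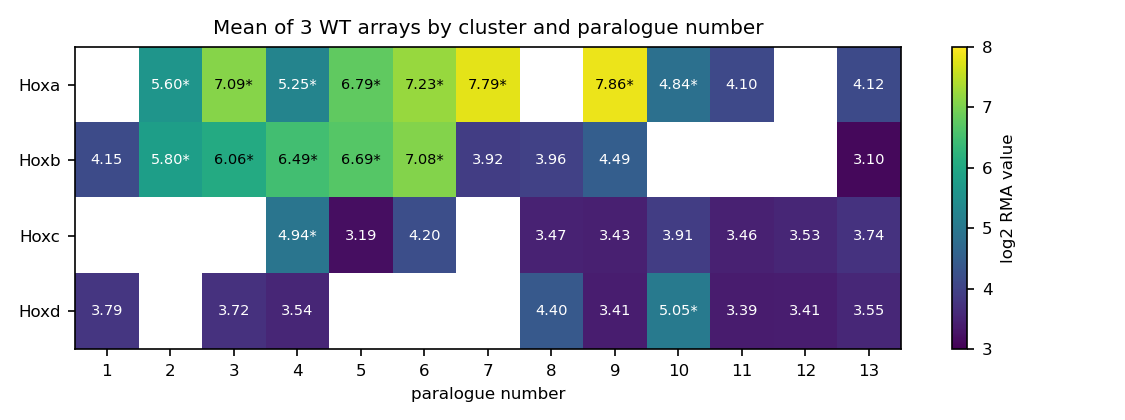
Mean log2 RMA value of 3 WT arrays for each measured Hox gene, by cluster (rows) and paralogue number (columns). Asterisks mark the 15 genes above the mark of low signal on each WT array. Apart from Hoxc4 and Hoxd10, they form a block in Hoxa from 2 to 10 and another in Hoxb from 2 to 6. White cells hold no measured member. Colours show array values, which do not rank transcripts of different genes.

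Promoter sequences are shown for 5 genes: Hoxa9 and Hoxb4, the Hox genes best known from HSCs, Hoxa13, at low signal in the same cluster as Hoxa9, and Hoxa3 and Hoxa6, the members above the mark whose arrays did not overlap between genotypes. Each is the RefSeq window (GRCm38.p6) from 250 bases before to 50 bases after the start of the gene, 5′ to 3′ on the strand of the gene, with CG dinucleotides in capitals. The windows are chr6:52227321-52227620 on the minus strand for Hoxa9, chr11:96318017-96318316 on the plus strand for Hoxb4, chr6:52260831-52261130 (minus) for Hoxa13, chr6:52213018-52213317 (minus) for Hoxa3 and chr6:52208623-52208922 (minus) for Hoxa6.
Hoxa9: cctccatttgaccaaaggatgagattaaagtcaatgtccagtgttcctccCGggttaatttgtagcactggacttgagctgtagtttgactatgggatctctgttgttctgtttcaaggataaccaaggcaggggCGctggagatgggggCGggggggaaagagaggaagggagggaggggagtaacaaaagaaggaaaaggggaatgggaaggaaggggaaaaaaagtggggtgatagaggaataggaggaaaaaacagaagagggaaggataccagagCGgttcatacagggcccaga
Hoxb4: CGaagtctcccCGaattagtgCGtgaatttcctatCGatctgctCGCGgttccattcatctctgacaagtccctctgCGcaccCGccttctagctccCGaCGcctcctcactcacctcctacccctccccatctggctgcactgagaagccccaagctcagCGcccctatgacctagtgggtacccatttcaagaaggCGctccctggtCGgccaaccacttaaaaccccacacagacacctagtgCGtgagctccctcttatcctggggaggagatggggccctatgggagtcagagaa
Hoxa13: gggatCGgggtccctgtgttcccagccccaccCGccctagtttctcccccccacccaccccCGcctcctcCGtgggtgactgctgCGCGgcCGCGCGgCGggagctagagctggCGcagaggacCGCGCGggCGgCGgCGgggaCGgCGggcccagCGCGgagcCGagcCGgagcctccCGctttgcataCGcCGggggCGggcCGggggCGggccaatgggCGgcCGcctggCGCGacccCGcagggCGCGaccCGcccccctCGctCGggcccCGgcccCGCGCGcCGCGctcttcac
Hoxa3: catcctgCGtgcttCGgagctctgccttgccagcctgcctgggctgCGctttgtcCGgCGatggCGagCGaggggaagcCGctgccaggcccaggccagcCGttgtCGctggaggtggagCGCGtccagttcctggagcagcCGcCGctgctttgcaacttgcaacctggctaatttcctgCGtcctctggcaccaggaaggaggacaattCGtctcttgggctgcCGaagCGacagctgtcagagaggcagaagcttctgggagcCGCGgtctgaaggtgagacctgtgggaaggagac
Hoxa6: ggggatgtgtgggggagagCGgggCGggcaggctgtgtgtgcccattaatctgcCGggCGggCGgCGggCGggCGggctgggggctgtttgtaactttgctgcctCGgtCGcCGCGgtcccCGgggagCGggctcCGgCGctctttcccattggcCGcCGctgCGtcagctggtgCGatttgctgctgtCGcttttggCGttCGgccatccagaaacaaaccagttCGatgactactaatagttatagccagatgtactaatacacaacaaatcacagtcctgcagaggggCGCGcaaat

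The Hoxa9 window held 4 CG dinucleotides and Hoxb4 held 14, while Hoxa3 held 20, Hoxa6 26 and Hoxa13, without signal above the mark, 45. A window was found for 22 of the 38 Hox genes, 2 of them with 2 windows. Over these 24 windows the median number of CG was 14.5, with a range of 4 to 45, compared with a median of 7.0 over all 32851 windows of this length. The 11 windows of genes above the mark in WT had a median of 14 and the 13 windows of the other genes one of 15. The windows found with and without signal above the mark thus had similar medians, and both lay above that of all windows. No window was found for Hoxa4, Hoxb2, Hoxb3, Hoxb5 or Hoxb6, so Hoxb4 alone stood for the Hoxb run. Of the Hoxc genes only Hoxc4 had a window, so the windows of genes not above the mark included no Hoxc gene. The core of the MEIS motif, TGACAG on either strand, occurred in 2 of 24 windows (8.33%), those of Hoxa2 and Hoxa3, and in 19.2% of all windows. The PBX-HOX motif TGATTNAT occurred in 2 of 24 windows, those of Hoxa2 and Hoxd11, and in 3.22% of all. The TATA motif TATAAA was present in 4 of 24 (16.7%) and in 13.6% of all. No match of a motif overlapped one of another motif in the Hox windows. A match describes the letters only.

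No Hox gene changed between genotypes at the threshold. Of the 38 genes, 0 passed an adjusted p of 0.05 in limma, 2 (5.26%) had an unadjusted p under 0.05, and an unmoderated test per gene also called 0, again with 2 at an unadjusted p under 0.05. Over all named genes the threshold was passed by 0.00431%, which is Babam1 alone, and 4.22% had an unadjusted p under 0.05 (4.27% in the unmoderated test). The 2 genes were Hoxa2, which was higher in Merit40-/- (2.26% of all genes reached this with a higher mean), and Hoxc8, which was lower (1.96% of all genes). The smallest adjusted p of a Hox gene was 0.999 in limma. In the means, 20 Hox genes were higher in Merit40-/- (52.6%, against 51.5% of all genes) and 18 lower. Their median difference, Merit40-/- minus WT, was 0.0079, compared with 0.0052 over all genes. By cluster the median difference was 0.03 for Hoxa, 0.04 for Hoxb, 0.02 for Hoxc and -0.07 for Hoxd.

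The intervals give the range of differences that these arrays allow. For 36 of 38 Hox genes (94.7%, compared with 96.4% of all genes) the whole 95% interval stayed between a 2-fold decrease and a 2-fold increase. The exceptions were Hoxa3, with an upper bound of 1.03, and Hoxc6, with one of 1.24. For Hoxa9 the interval ran from -0.28 to 0.38, for Hoxb5 from -0.14 to 0.40, for Hoxb4 from -0.32 to 0.57 and for Hoxa10 from -0.33 to 0.25. These bounds hold for array values, which are compressed near low signal.

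**Figure D3:**
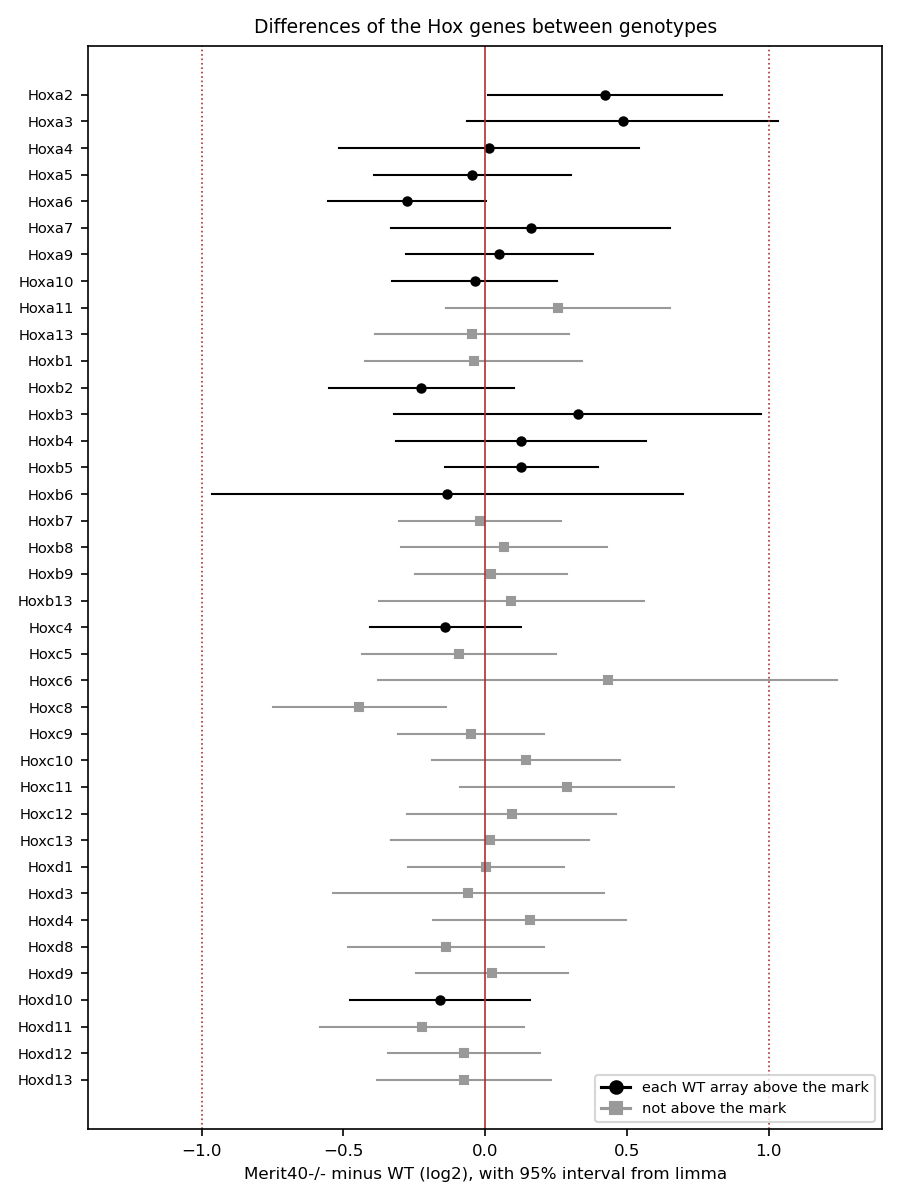
Difference of each Hox gene between genotypes, Merit40-/- minus WT on the log2 scale (x axis), with its 95% interval from limma over 3 and 3 arrays. Black circles are the 15 genes above the mark on each WT array and grey squares the other 23. Dotted lines stand at 2-fold, which only the intervals of Hoxa3 and Hoxc6 cross.

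For 3 Hox genes (7.89%) the WT and Merit40-/- arrays occupied separate ranges, against 9.05% of all named genes. One was higher in Merit40-/- (4.84% of all genes) and 2 were lower (4.22% of all genes). The count was 5, 7 and 9 without WT replicate 1, 2 or 3, and 5, 6 and 8 without Merit40-/- replicate 1, 2 or 3. With 5 arrays the share over all genes was likewise larger, at 16.9% to 19.6%.

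Hoxa6 had its 3 Merit40-/- values, 6.93, 7.01 and 6.93, below all of its WT values, 7.09, 7.25 and 7.36, a difference of -0.27 (SE 0.12, 95% interval -0.55 to 0.0031, adjusted p = 0.999 in limma). The gap between the lowest WT and the highest Merit40-/- array was small beside the spread within WT. With 1 array left out the difference ranged from -0.35 to -0.21.

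Hoxa3 had its Merit40-/- values, 8.17, 7.26 and 7.29, above its WT values, 6.97, 7.10 and 7.19, a difference of 0.49 (SE 0.24, 95% interval -0.06 to 1.03, adjusted p = 0.999 in limma). Replicate 1, the array with muscle transcripts, stood 1.08 above the WT mean, and the other Merit40-/- arrays 0.17 and 0.20. Without it the difference was 0.19.

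Hoxc8, which specifies brachial motor neurons, had separate ranges too, but at low signal. Its Merit40-/- values were 3.12, 2.95 and 3.01 against 3.46, 3.30 and 3.66 in WT, all below the mark. The difference was -0.44 (SE 0.13, unadjusted p = 0.00992, adjusted p = 0.999 in limma). It kept its sign with each array left out, at -0.53 to -0.35.

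Hoxa2 was the other gene with an unadjusted p under 0.05. It read 6.27, 5.97 and 5.83 in Merit40-/- against 5.59, 5.89 and 5.34 in WT, so the groups overlapped by 1 array. Its difference was 0.42 (SE 0.18, unadjusted p = 0.0462, adjusted p = 0.999 in limma), and was 0.30 without Merit40-/- replicate 1 and 0.29 without WT replicate 3.

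The other genes of the Hoxa run overlapped between genotypes. Hoxa9 read 8.0, 7.79 and 7.93 in Merit40-/-, within the WT range, with a difference of 0.05 (SE 0.14). Hoxa7 read 8.09, 7.90 and 7.85, also within the WT range (difference 0.16, SE 0.21). Hoxa10 read 4.90, 4.72 and 4.80, with a difference of -0.04 (SE 0.13). For these 3 genes every Merit40-/- array lay within the range of the WT arrays. Hoxa5 read 6.98, 6.76 and 6.49 (difference -0.04, SE 0.15). Hoxa4 read 5.46, 5.60 and 4.74, with replicate 3 lower than any WT array and a difference of 0.01 (SE 0.23).

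In the Hoxb run no gene separated the genotypes. Hoxb4 read 6.56, 6.42 and 6.88 in Merit40-/- (difference 0.13, SE 0.19). Hoxb5 read 6.87, 6.76 and 6.82 (difference 0.13, SE 0.12), and only replicate 1 lay above the highest WT array. Hoxb2 read 5.54, 5.73 and 5.46 (difference -0.22, SE 0.14). The remaining pair had the widest spread of the run, Hoxb6 in Merit40-/- and Hoxb3 in WT (SD 0.64, but 0.08 in Merit40-/-, n = 3 each). Hoxb6 read 7.57, 7.19 and 6.07 in Merit40-/- (SD 0.78, n = 3), so that its difference of -0.13 (SE 0.36) became 0.30 without replicate 3, the array with osteoclast transcripts. Hoxb3 read 6.30, 6.42 and 6.45, between the WT arrays at 5.71 and 6.80, and its difference of 0.33 (SE 0.28) became 0.69 without WT replicate 3 and 0.13 without WT replicate 1.

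Hoxc4 read 4.77, 4.71 and 4.91 in Merit40-/- (difference -0.14, SE 0.12) and Hoxd10 4.67, 4.98 and 5.03 (difference -0.16, SE 0.14), both close to the mark of 4.47 to 4.63 on these arrays. Hoxc6 was again scattered, at 4.56, 5.15 and 4.17. Among the 23 genes not above the mark, differences ran from -0.44 (Hoxc8) to 0.43 (Hoxc6), with 12 higher and 11 lower. Hoxa11 read 4.10 to 4.65 in Merit40-/-, where replicate 3 lay just above the mark (difference 0.26), and Hoxa13 3.80 to 4.21 (difference -0.05). Hoxb1 read 3.85 to 4.27, Hoxb8 3.77 to 4.21 and Hoxb9 4.46 to 4.57, with 1 of 3 Merit40-/- arrays of Hoxb9 above the mark. Hoxb13 read 2.91 to 3.58 and Hoxd8 4.06 to 4.53, so that these genes stayed near or below the mark in both genotypes.

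The 15 genes above the mark also varied between arrays of a genotype. WT replicate 3 was the highest WT array for 10 of 15 and WT replicate 1 the lowest for 10 of 15. The median deviation of the 15 genes from their WT means was -0.07, -0.05 and 0.13 in WT replicates 1 to 3 and 0.18, -0.03 and -0.02 in Merit40-/- replicates 1 to 3. Over all genes these medians lay between -0.0054 and 0.0079. Merit40-/- replicate 1, which had the highest median deviation, is the array with muscle transcripts, whose part in this was not tested. The median SD of the 15 genes was 0.19 in WT and 0.14 in Merit40-/-, compared with 0.16 and 0.17 over all genes.

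**Figure D4:**
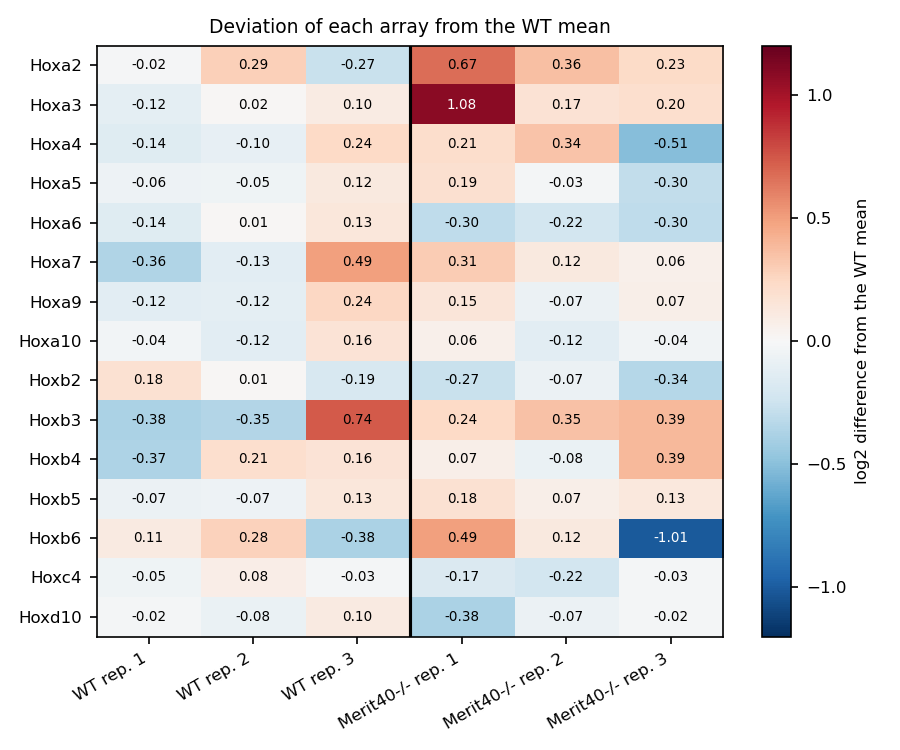
Deviation of each array (columns) from the WT mean for the 15 Hox genes above the mark (rows), in log2 units, red above and blue below the WT mean. The largest deviations are those of Hoxa3 in Merit40-/- replicate 1 (1.08) and Hoxb6 in Merit40-/- replicate 3 (-1.01), and no gene but Hoxa3 and Hoxa6 has non-overlapping genotypes.

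The clusters also hold antisense RNAs and microRNAs, and 13 such genes inside the 4 clusters were measured. Of these, 3 lay above the mark on every WT array, all of them in the Hoxa run: Hoxaas3, 5730596B20Rik and Mira. Mira, a noncoding RNA between Hoxa6 and Hoxa7, read 8.59, 8.50 and 8.59 in WT and 8.83, 9.25 and 8.50 in Merit40-/-. Antisense and overlapping transcripts of the run may share probes with Hox genes. Hotair, a noncoding RNA of the Hoxc cluster, stayed at 3.10 to 3.44 in WT and 2.96 to 3.40 in Merit40-/-. Of the 13 genes, 0 passed the adjusted threshold in limma, 0 had an unadjusted p under 0.05, and 8 were higher and 5 lower in Merit40-/-.

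Of the microRNA genes, miR-10 and miR-196a have copies in more than 1 cluster, while Mir615 was found in the Hoxc cluster alone; their mature sequences are shown for this. The 5p sequences are given 5′ to 3′ from RefSeq (GRCm38.p6), with the seed (bases 2 to 8) in capitals.
miR-10a-5p: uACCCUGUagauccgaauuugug
miR-10b-5p: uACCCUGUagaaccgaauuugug
miR-196a-5p: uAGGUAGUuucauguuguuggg
miR-615-5p: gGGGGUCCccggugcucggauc
The first pair share a seed and differ by the substitution U12A, counted from 1 at the 5′ end of miR-10a-5p. Mir10a lies beside Hoxb4 and Mir10b beside Hoxd4. The miR-196a-5p sequence is encoded by Mir196a-1 in the Hoxb cluster and by Mir196a-2 in the Hoxc cluster. The arrays were hybridised with amplified total RNA and do not separate mature from precursor RNA. Mir10a had the highest difference of the 13 genes, at 0.84 (SE 0.53, adjusted p = 0.999 in limma). It read 2.69, 3.14 and 2.61 in WT and 3.07, 2.81 and 5.08 in Merit40-/-, with replicate 3, the array with osteoclast transcripts, far above the other arrays. Mir10b read 2.48 to 2.52 in WT and 2.54 to 2.82 in Merit40-/-, without overlap (difference 0.17, SE 0.12). Mir615, in the Hoxc cluster, had the lowest difference, at -0.26 (SE 0.12), with 3.77 to 3.99 in WT and 3.58 to 3.65 in Merit40-/-. Of the 13 genes, 2 (Mir10b and Hoxd3os1) had all Merit40-/- arrays above the WT arrays, as did 4.84% of all genes. For Mir615 alone they all lay below, as for 4.22% of all genes. All these microRNA genes lay below the mark on every WT array. Among the 24 genes flanking the clusters, 3 on each side, 0 passed in limma and 1 (4.17%) had an unadjusted p under 0.05, close to the 4.22% of all genes. Their differences ran from -0.22 (4930441J16Rik) to 0.32 (Snx10).

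The partners and regulators of the Hox proteins did not change at the threshold either. Over the 91 genes of the 7 related lists, 0 passed the adjusted threshold in limma, against 0.00431% of all named genes. An unadjusted p under 0.05 was reached by 3 (3.3%, against 4.22% of all genes), and in the unmoderated test, which also called 0, by 8 (8.79%, against 4.27% of all genes). In the means, 45 were higher (49.5%, against 51.5% of all genes) and 46 lower in Merit40-/-. Of the 8 measured TALE cofactors, 6 lay above the mark in both genotypes. Meis1, the main Meis gene of HSCs, read 10.64, 10.51 and 10.83 in WT and 10.99, 10.60 and 10.71 in Merit40-/- (difference 0.11, SE 0.15). Pbx3, a partner of Hoxa9 in leukaemia, differed by 0.25 (SE 0.23). The median difference of the cofactors was 0.13, with 7 higher and 1 lower. Meis2 was the highest at 0.51 (SE 0.16, adjusted p = 0.999 in limma), with 3.89 to 4.12 in WT and 4.26 to 4.81 in Merit40-/-, and thus near low signal. Pbx4 was the lowest at -0.21 (SE 0.19).

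All 14 measured MLL and trithorax genes lay above the mark, with a median difference of -0.02 (6 higher and 8 lower). Kmt2a, which encodes the MLL histone methyltransferase, read 9.16, 9.04 and 9.23 in WT and 9.23, 9.29 and 9.04 in Merit40-/- (difference 0.04, SE 0.12). Men1, for the menin subunit that tethers MLL, differed by 0.12 (SE 0.14). The highest difference was that of Mllt3, a super elongation complex gene active in HSCs, at 0.26 (SE 0.14), and the lowest that of Mllt10, a partner of the methyltransferase Dot1l, at -0.10 (SE 0.15). All 14 measured Polycomb genes lay above the mark as well, with a median difference of -0.05 (6 higher and 8 lower). They ran from Cbx2, a chromodomain subunit, at -0.27 (SE 0.19) to Pcgf2, a ring finger subunit, at 0.39 (SE 0.20).

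The 8 ParaHox, Cdx and Evx genes, relatives of the Hox genes, were at low signal apart from Cdx2, which read 4.87 to 5.23 in WT. Their median difference was -0.11, with 7 lower and 1 higher. The lowest was Cdx1 at -0.26 (SE 0.12) and the highest Cdx4, an activator of Hox genes in embryonic blood, at 0.06 (SE 0.12). The 12 reported targets of HOX and MEIS proteins had a median difference of 0.0095 and 7 members higher. Cdk6, a cell cycle kinase, was the lowest at -0.34 (SE 0.14, unadjusted p = 0.0424, adjusted p = 0.999 in limma), with 10.13 to 10.54 in WT and 9.87 to 10.10 in Merit40-/-. Flt3, a cytokine receptor gene, was the highest at 0.15 (SE 0.24).

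**Figure D5:**
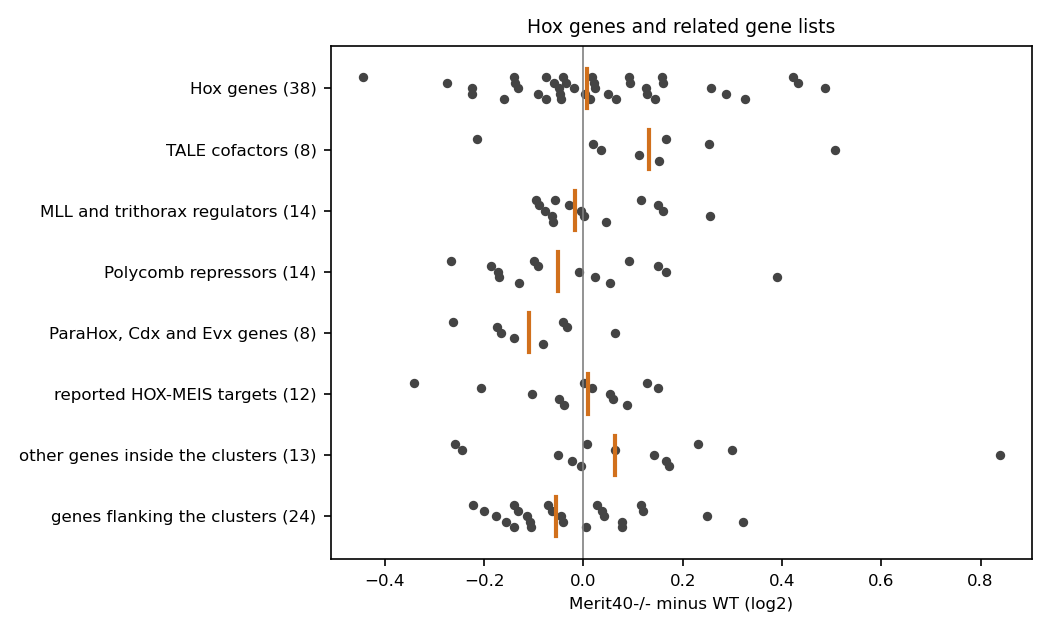
Differences between genotypes, Merit40-/- minus WT on the log2 scale (x axis), for the 38 Hox genes and 7 related lists (rows, number of genes in parentheses). Points are genes and orange lines are list medians, which lie between -0.11 and 0.13. The point at 0.84 is Mir10a.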

How the data were processed

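The deposited values of the 6 arrays, 3 WT and 3 Merit40-/- by their titles, are log2 expression values. Per the submitters' processing notes the authors used RMA and the affy package. RMA corrects background, equalises array distributions and compresses differences near low signal. No version, chip definition or genome build is named in the sources used here. Of 25206 probe sets, each named by an Entrez number, 23185 had 1 gene symbol in the platform annotation. The other 2021 are unnamed here and were not analysed. Entrez numbers were matched to the RefSeq table (GRCm38.p6) for symbols, gene order and sequences. No probe set was filtered out.

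The genotypes were tested with limma (version 3.58.1, R 4.3.3): a linear model with moderated variances, 2-sided, adjusted after Benjamini and Hochberg over 23185 genes, at a threshold of 0.05. For Babam1 an exact 2-sided permutation test of 3 against 3 arrays gave p = 0.1, the smallest value possible. The number of arrays limits the precision, and the 95% interval reached 0.344 to either side of the difference for the median Hox gene. Members, lists and the mark of low signal were chosen with earlier results of these data known, as were the muscle and osteoclast markers. Per-array values are given for Hox genes above the mark and for those with an unadjusted p under 0.05 or separate ranges; of each list the highest and lowest differences are named, with Meis1, Pbx3, Kmt2a and Men1. Hotair, Mira, Mir10b, Hoxd3os1, Cdx2, Cxcl12, Emcn, Pecam1, Cdh5, Kdr, Ly6g, Itgam, Cd3e and Cd48 were named after their values were seen. Some listed genes were not analysed here. Alternatives were a replicate block, other variance models and weights, other scalings, filters on dim genes, other marks of low signal, and arrays left out.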

Additional observations from a re-analysis of the deposited data

How the results depend on the processing

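With 3 arrays per genotype, small differences of single Hox genes cannot be told from array spread. Across 17 refits, and at an adjusted p under 0.1, 0 Hox genes and 0 related genes passed in limma. Of the alternatives, 6 (the replicate block, the other variance models, the filters and all probe sets) leave a difference as it is and say nothing about its stability. The sign of a Hox difference changed in 36 of 228 values with 1 array left out, 10 of 38 with 2 left out together and 0 of 152 under other scalings or array weights; Hoxa2, Hoxa3, Hoxa6, Hoxb3 and Hoxc8 were among 17 of 38 genes without such a change. The Babam1 difference of -3.94 passed in each refit except the unmoderated test (adjusted p = 0.168). The median Hox difference stayed between -0.05 and 0.05. The count above the mark in WT was 15 with each WT array left out and after quantile normalization, and 7 with the 99th percentile. The count of non-overlapping Hox genes ranged from 5 to 9 with 1 array left out. Without Merit40-/- replicates 1 and 3 together, a setting chosen after seeing the data that assumes the lone array varies like WT, it was 19 (50.9% of all genes). Arrays share replicate numbers between genotypes, but same-numbered arrays did not deviate together (r = -0.05, -0.0027 and 0.04 across genes). With the replicate number as a block, 0 Hox genes passed in limma and Babam1 kept its call (-3.94).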
